A study of Mus musculus with 8 samples.

Results

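The Myc binding sites of Rb-deficient intestinal crypt cells were compared with those of Rb-deficient villus cells. The members were all sites in the deposited lists of the 2 anti-Myc libraries, 31397 in crypt and 4119 in villus, which together make 35516 of the 284230 sites in the series. Both libraries came from mice of mixed background (C57BL/6 X 129 X FVB/N) in which Rb had been deleted through Ah-cre, an inducible Cre recombinase of the intestine, and both were precipitated with the same Santa Cruz Myc antibody. The series has 8 libraries of ChIP-exo-seq, in which an exonuclease trims immunoprecipitated DNA up to the crosslinked protein. The other 6 libraries are anti-E2f3 from Rb-deficient crypt and villus, and anti-E2f3 and anti-Myc from control crypt and villus, which the labels call wild type.

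Each group was 1 library, so no difference has a replicate check, and the 95% intervals given are exact binomial (Clopper-Pearson) intervals that cover counting error only. The number of mice behind a library, their age and the Rb alleles are not given in the labels. Site lists hold no expression, so neither the loss of Rb nor the crypt and villus labels could be checked. Sequencing depth is unknown, and the longer crypt list was therefore also cut to the length of the villus list.

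Myc is a basic helix-loop-helix leucine zipper protein that binds DNA with its partner Max, and its best known sequence is the E-box CACGTG. Its known targets include genes for making ribosomes, for translation and for nucleotide and polyamine synthesis. In the intestine Myc is known as a target of Wnt signalling in the dividing cells of the crypt, whereas the villus is covered by differentiated cells. Rb holds back E2F factors, of which E2f3 is a member.

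The promoter sites below are crypt sites that hold the E-box, which few villus sites had. Each is 30 bases of the plus strand of mm9 around a crypt site, with the site at base 15 and the E-box at the site in capitals. They are sites of members of the growth gene lists and of high-scored crypt promoter genes, and each shown has the E-box. Of all crypt promoter sites without a villus partner, 32.6% had it within 50 bp, so the sequences do not stand for that class. Rpl32 at a score of 113.84 and Rpl10a at 98.90 had none and are not shown. Among them, the site of Ncl was the one with a villus site within 250 bp.
Ncl, chr1:88255393-88255422: cgcgcaccagagCACGTGcgcggggaggcg
Npm1, chr11:33062361-33062390: taacccccaacCACGTGgcaaccacgtgct
Pes1, chr11:3863968-3863997: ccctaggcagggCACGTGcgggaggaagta
Dkc1, chrX:72341961-72341990: ccttgccacagcCACGTGgagaacccgaag
Odc1, chr12:17552033-17552062: ccggcaggggaCACGTGgcccgggaccggt
Shmt1, chr11:60624664-60624693: taacagcccagCACGTGctccgggaaccag
Srm, chr4:147965429-147965458: gggcctctcccCACGTGgcccggcagccgg
Tars, chr15:11329378-11329407: tgcgcgtgcgcCACGTGgccacaggcggaa
Pemt, chr11:59859950-59859979: ctcaggaggtgcCACGTGggggcctcgccc
Slc19a1, chr10:76496559-76496588: cgactttagagCACGTGttgcctgcaagga

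The next sequences are sites that both lists held, shown in the same way, with the crypt site first and its villus partner after it. None of these 30-base windows contains the E-box. They were chosen from genes with a high-scored promoter site in both lists, and the last is the villus site at Ncl.
Bbc3 crypt site, chr7:16896054-16896083: ggggcacttgagctgtgtttgtgtgtcgct
Bbc3 villus site, chr7:16896016-16896045: cttgcctggtagtgttggtggtggtggtgc
Taco1 crypt site, chr11:105928109-105928138: gcgagttggttctgtcggtgccggtcgcgg
Taco1 villus site, chr11:105928120-105928149: ctgtcggtgccggtcgcgggttcccgtgtc
Pacsin2 crypt site, chr15:83262644-83262673: agtacagtccactggaaaagctcatttgct
Pacsin2 villus site, chr15:83262643-83262672: aagtacagtccactggaaaagctcatttgc
Idi1 crypt site, chr13:8884413-8884442: tttattaagaatggactgtcacacgatggt
Idi1 villus site, chr13:8884428-8884457: ctgtcacacgatggtttaacaactgtcaaa
Ncl villus site, chr1:88255149-88255178: agcagcaccacgtaacccaactgcttccca

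A small part of the crypt sites lay close to a villus site, while nearly every villus site lay close to a crypt site. Of the 31397 crypt sites, 3828 or 12.2% (interval 11.8% to 12.6%) had a villus site within 250 bp, where 0.0758% of the reference genome lay that close to a villus site. Of the 4119 villus sites, 3826 or 92.9% (92.1% to 93.7%) had a crypt site within 250 bp, where 0.607% of the genome lay that close to a crypt site. The partners lay a median of 14 bp apart, 95.8% of them within 50 bp and 2.88% at the same base. Without the sites on contigs outside the reference chromosomes, the villus share was 94.6%.

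The villus sites corresponded to the highest-scored part of the crypt list. The score is the authors' own and its scale is not stated, so it was used for ranks within a list. The crypt partner of a villus site had a median rank within the top 9.90% of the crypt list. With the crypt list cut into 10 classes of equal size by score, 60.4% of sites had a villus partner in the highest class, 26.6% in the next, 4.81% in the fifth and 0.83% in the last. The ranks of both members of a pair were related, with a Spearman rho of 0.64 over 3826 pairs, which is a description because pairs share regions and callers.

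At equal list length the lists overlapped less completely. The top 4119 crypt sites, down to a score of 30.13, shared 2236 sites or 54.3% (52.7% to 55.8%) with the villus list. From the villus side the count was 2282 of 4119, or 55.4% (53.9% to 56.9%). Thus 92.9% of villus sites lay near some crypt site and 55.4% near one of the crypt sites of highest score.

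The overlap between both Myc lists lay within the range of their overlaps with lists of the other antibody or genotype. With every list cut to 4119 sites, the crypt Myc sites shared 65.8% with control crypt Myc, 63.4% with control villus Myc, 59.4% with control crypt E2f3, 58.2% with control villus E2f3 and 55.8% with Rb-deficient crypt E2f3. The 54.3% shared with Rb-deficient villus Myc was sixth of these 7 overlaps, above the 52.6% with Rb-deficient villus E2f3. The villus Myc sites shared 57.8% with control villus Myc, 55.4% with Rb-deficient crypt Myc, 52.1% with control villus E2f3, 49.4% with control crypt Myc, 46.0% with control crypt E2f3, 44.6% with Rb-deficient villus E2f3 and 41.9% with Rb-deficient crypt E2f3.

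**Figure D1:**
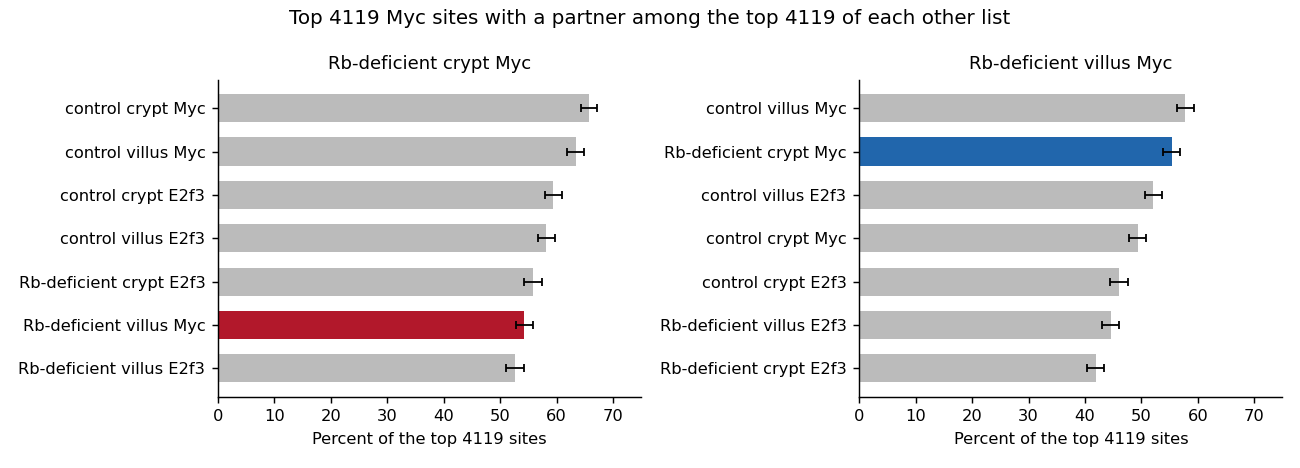
Overlap at equal list length, as the percent of the top 4119 sites of Rb-deficient crypt Myc (left) and Rb-deficient villus Myc (right) with a site within 250 bp among the top 4119 of each other library. The coloured bar is the crypt and villus Myc pair, at 54.3% and 55.4%, and error bars are exact 95% intervals.

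Sites shared by crypt and villus Myc were largely also sites of E2f3. Of the shared crypt sites, 95.3% had an E2f3 site of either Rb-deficient library within 250 bp, against 49.0% of crypt sites without a villus partner. This share follows the score, since 94.4% of the top 4119 crypt sites had an E2f3 site, shared or not. Within the highest of the 10 score classes it was 99.2% (98.6% to 99.5%) in shared crypt sites and 89.9% (88.1% to 91.6%) in unshared ones. In the fifth class it was 87.4% (81.0% to 92.3%) in shared crypt sites and 55.1% (53.3% to 56.9%) in unshared ones. Among all sites the shares were 54.6% in crypt and 92.1% in villus. Shared crypt sites had an E2f3 site of Rb-deficient crypt in 92.2% of cases and of Rb-deficient villus in 80.0%, while 0.522% of the genome lay that close to an E2f3 site of Rb-deficient crypt and 0.281% to one of Rb-deficient villus. They had a control crypt Myc site in 97.4% of cases and a control villus Myc site in 74.5%. Crypt sites without a villus partner had a control crypt Myc site in 88.3% of cases and a control villus Myc site in 13.5%. The control crypt Myc list is far longer, with 159181 sites against 7223 in control villus Myc. Within 250 bp of these lists lay 3.03% and 0.137% of the genome, so these shares do not compare control crypt with control villus.

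Where no E2f3 site was near, sharing was lower. Of 14242 crypt sites without an E2f3 site of the Rb-deficient libraries, 180 or 1.26% had a villus partner. Within the highest score class the share with a villus partner was 11.3% (6.63% to 17.8%) in 141 crypt sites without E2f3 and 62.8% (61.0% to 64.5%) in 2999 with it. Of 325 villus sites without E2f3, 179 or 55.1% had a crypt partner, in place of 92.9% over all villus sites. No input library was used here, so how far sites common to both antibodies depend on the antibody was not tested.

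**Figure D2:**
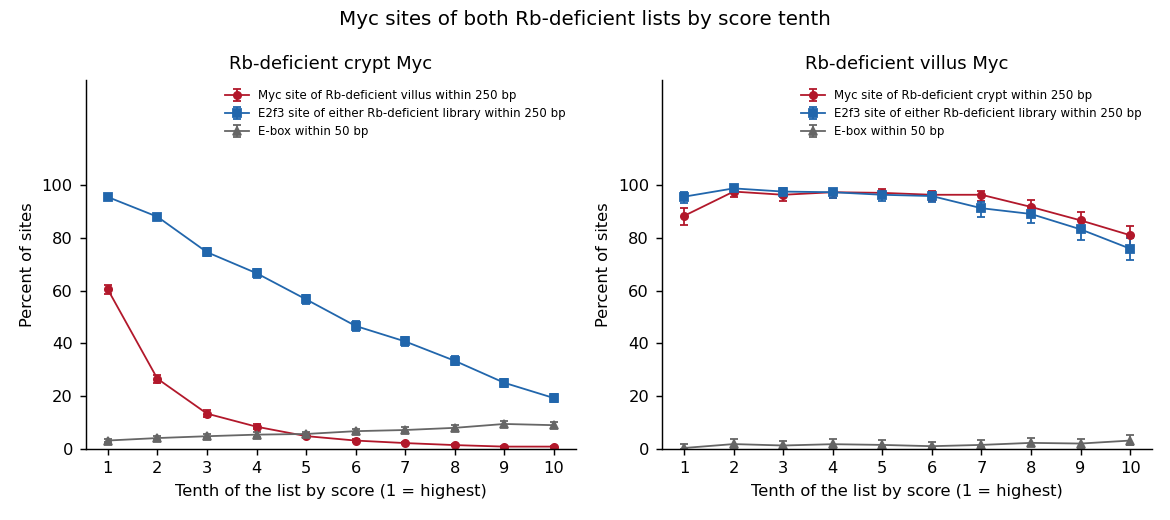
Percent of sites (y axis) in each of 10 equal classes of the list by score, highest first (x axis), for Rb-deficient crypt Myc (left) and Rb-deficient villus Myc (right), with exact 95% intervals. In crypt the share with a villus partner goes down from 60.4% to 0.83% and the share with E2f3 from 95.5% to 19.2%, while the E-box share goes up from 3.13% to 8.96%. In villus the partner share stays between 81.0% and 97.6%.

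The E-box was more frequent at crypt sites than at villus sites, a difference that was not tested apart from how events were placed. Within 50 bp of the site it was found at 1973 of 31252 crypt sites on the reference chromosomes, 6.31% (6.05% to 6.59%), and at 65 of 3931 villus sites, 1.65% (1.28% to 2.10%). Windows 2 kb to each side gave 1.08% for crypt and 1% for villus. Cut to equal length, the crypt list had 3.37% (2.84% to 3.97%), above the upper limit of the villus interval.

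The difference followed sharing within the crypt list itself. Crypt sites without a villus partner had the E-box in 1911 of 27523 cases, 6.94% (6.65% to 7.25%), and those with a partner in 62 of 3729, 1.66% (1.28% to 2.13%). Within the highest of the 10 score classes of the crypt list, with scores of at least 35.86, the shares were 5.74% (4.51% to 7.19%) in 1237 sites without a partner and 1.4% (0.92% to 2.04%) in 1858 sites with one. Crypt sites with an E-box had a villus partner in 3.14% of cases and those without an E-box in 12.5%. The intervals of these groups do not overlap, which speaks of counting error alone.

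Among crypt sites without a villus partner, those away from E2f3 held the most E-boxes. The share was 10.5% (10% to 11%) in 14044 sites with no E2f3 site of the Rb-deficient libraries, and 3.23% (2.94% to 3.54%) in 13479 sites with one. In turn, 24.8% of crypt E-box sites had an E2f3 site nearby, against 56.5% of crypt sites without an E-box. Control crypt Myc had a site at 44.6% of the crypt E-box sites and at 92.7% of the others.

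**Figure D3:**
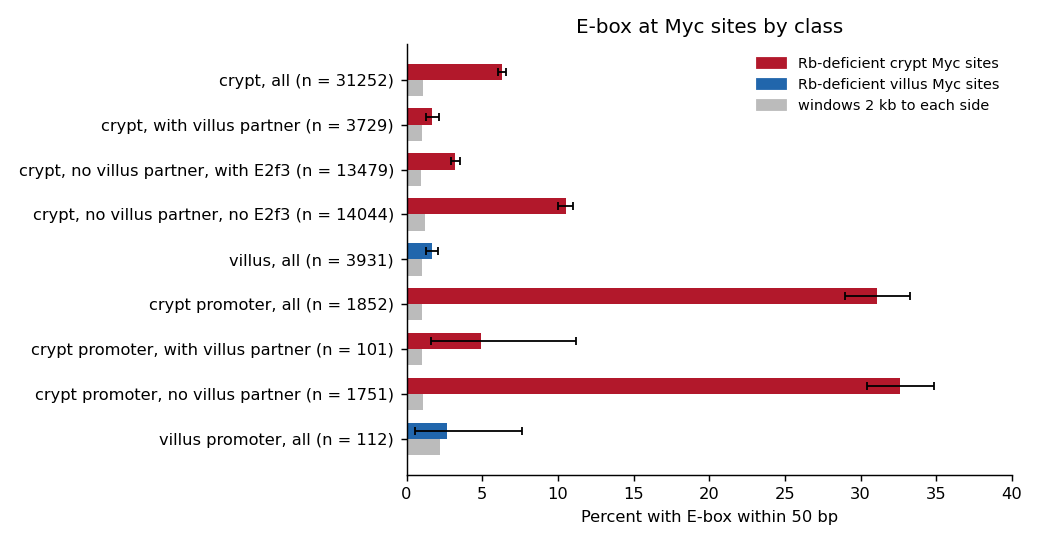
Percent of Myc sites with the E-box within 50 bp, by class, in Rb-deficient crypt (red) and Rb-deficient villus (blue), with exact 95% intervals and with windows 2 kb to each side (grey). The longest bars are the crypt promoter sites, at 31.1% in all and 32.6% without a villus partner, while villus promoter sites are at 2.68%.

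The placement of the E-box also differed. In the crypt list 1750 of the 1973 sites with an E-box had it centred on the site, and among shared crypt sites 37 of 62. In the villus list 0 of 65 were, for which 3 counts of 65 set an upper limit of 4.62%. The deposited names give GEM as the caller of the events, a program that can draw on motifs when it places an event, so a share within 50 bp is not independent of placement. Within 250 bp the E-box share was 12.5% in crypt and 8.19% in villus, which is 2.33 times the share in flanking windows for crypt and 1.54 times for villus. Shared crypt sites had 8.50% at 1.54 times their flanks, and unshared crypt sites 13.1% at 2.44 times. The wider window still counts the E-boxes centred on a site. Such a centred E-box was present at 1713 of the 3593 unshared crypt sites with an E-box within 250 bp. It was present at 37 of 317 shared crypt sites and 0 of 322 villus sites. The wider window therefore does not test the difference apart from placement.

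Counted by distance, the E-boxes of shared sites were spread over the bins on and beside the site, without the central peak of the unshared crypt sites. Crypt sites without a villus partner had 37.2 and 35.8 E-boxes per 1000 sites in the bins of 50 bp to the left and right of the site. Shared crypt sites had 9.13 in each of these bins, and 10.5 and 14.2 in the bins 50 to 100 bp away. Villus sites had 7.13 and 9.67 in the central bins, and 13.2 and 12.0 in the next ones. Beyond 500 bp the bins ranged from 5.41 to 7.05 for unshared crypt sites, from 3.49 to 8.86 for shared crypt sites and from 4.07 to 9.42 for villus sites.

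**Figure D4:**
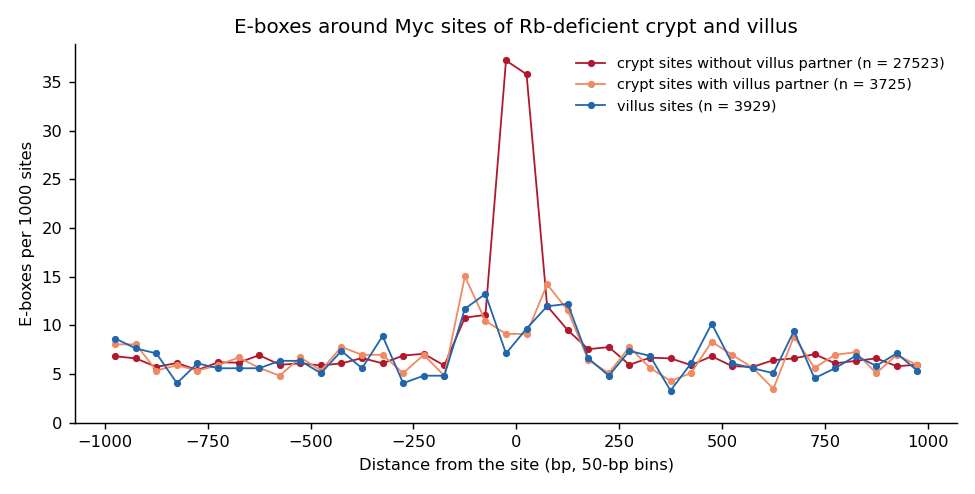
E-boxes per 1000 sites (y axis) against distance from the site in bins of 50 bp (x axis), for crypt sites without a villus partner, crypt sites with one, and villus sites. The central peak of about 37.2 belongs to the unshared crypt sites, while both other curves stay under 16 in every bin.

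The related sequence CACGCG showed the same split. It lay within 50 bp of 1.62% (1.48% to 1.78%) of crypt sites without a villus partner, 4.18 times their flanks, and of 0.35% (0.19% to 0.60%) of shared crypt sites, 1.24 times theirs. Motifs of other factors were near the level of the flanks at shared sites. Both strands were searched, and a window could hold several motifs. The E2F motif (TTCCCGC, counted also when spelled TTCGCGC, when spelled TTGCCGC and when spelled TTGGCGC) was found at 0.62% of shared crypt sites against 0.43% in flanks, the AP-1 motif (TGACTCA or TGAGTCA) at 2.01% against 1.77%, and the CDX motif (CCATAAA) at 1.26% against 1.47%. The GATA motif (AGATAAG) was found at 1.53% against 1.66%, and the TCF motif (ATCAAAG) at 1.98% against 1.68%. No motif that was searched marked the shared sites as the E-box marked the unshared crypt sites.

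Promoter sites, within 1 kb of the start of a protein-coding gene, were more frequent in the crypt list. They made up 5.93% (5.67% to 6.19%) of crypt sites and 2.85% (2.35% to 3.42%) of villus sites, where 2.31% of the genome lies within 1 kb of a start. Shared crypt sites were at promoters in 2.71% of cases and unshared ones in 6.36%. Of the crypt E-box sites 29.2% were at promoters. Introns held 42.1% of crypt and 42.8% of villus sites, against 35.0% of the genome, and intergenic DNA held 49.8% of crypt and 52.3% of villus sites, against 60.5% of the genome.

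At promoters the E-box separated the lists most. Of crypt promoter sites 576 of 1852, or 31.1% (29.0% to 33.3%), had the E-box within 50 bp, against 3 of 112, or 2.68% (0.56% to 7.63%), in villus. Windows of the same length laid over all promoters held the E-box in 1.67% of cases, and 28.5% of whole promoters, over 1 kb to each side, held at least one. The crypt promoter sites had a GC content of 57.3%, and villus promoter sites one of 44.4%. These E-box and GC values pool sites in the first 3.3 Mb of a chromosome, which were 25.9% of villus and 1.35% of crypt promoter sites. Crypt promoter sites without a villus partner and without E2f3 had the E-box in 435 of 1054 cases, or 41.3%. Of the 576 crypt promoter sites with an E-box, 550 had it centred on the site and 5 had a villus partner.

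These 5 sites lay at Ncl, Dazap1, Get4 and 4930528F23Rik, with 2 of them at Ncl, and were named after their values were seen. Their distances to the villus site were 18 bp at Dazap1, which encodes an RNA-binding protein, 42 bp and 244 bp at Ncl, 245 bp at Get4 and 203 bp at 4930528F23Rik. The villus scores there were low, from 2.01 at Dazap1 to 6.99 at 4930528F23Rik, in a list with a median of 7.14.

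Counted by gene, 1841 of 22232 protein-coding genes (8.28%) had a crypt promoter site and 94 (0.423%) a villus promoter site. Both lists had a site at 86 genes (0.387%), which are 4.67% of the crypt genes and 91.5% of the villus genes. A crypt site alone was found at 1755 genes (7.89%) and a villus site alone at 8 (0.036%). A promoter site with an E-box was found at 618 genes (2.78%) in crypt and 3 (0.0135%) in villus. Within 5 kb of a start, 4484 genes (20.2%) had a crypt site, 499 (2.24%) a villus site and 469 (2.11%) both. With the crypt list at 4119 sites, 224 genes (1.01%) had a crypt site and 62 (0.279%) a site in both. Genes with both had a median crypt score of 45.51 at their best site, and genes with a crypt site alone one of 8.82. At the best crypt site an E-box was present in 2.33% of genes with both and in 32.8% of genes with a crypt site alone.

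Genes of growth and ribosome production had crypt promoter sites more often than genes at large. The gene lists were chosen with earlier results of these data known, so their shares are descriptions. A villus promoter site was found at 0.423% of all genes, so a villus count of 0 or 1 in a list of this size says nothing about its genes, and this holds for each list below. Of 30 ribosome biogenesis genes 15 had a crypt site, 13 of them with an E-box in the promoter site, and 1 had a villus site. Of 30 metabolic and translation targets of Myc 11 had a crypt site, 10 with an E-box, and 0 a villus site. Over all 1841 genes with a crypt site, 578 or 31.4% had an E-box at the best site. The E-box counts of the lists carry the limit on event placement given above. The shares in crypt, 50% of ribosome biogenesis genes and 36.7% of metabolic and translation targets, stand beside 8.28% over all genes. The median score of the best crypt site was 20.48 in the first list and 9.16 in the second, against 9.30 over all genes with a crypt site. With the crypt list at equal length the counts were 3 and 0, against 1.01% of all genes.

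The ribosome biogenesis genes included Ncl, whose product nucleolin acts in the nucleolus. Its best crypt site, at chr1:88255407 in the first intron and 623 bp inside the gene, scored 90.01, rank 466 of the crypt list. A second crypt site at chr1:88255205 scored 47.25. The villus site at chr1:88255163 scored 4.83, and neither Rb-deficient E2f3 library had a site at the best crypt site. Npm1, which encodes nucleophosmin, a carrier of ribosomal subunits, had a crypt site of score 42.38 in an intron, 697 bp inside the gene. Pes1, needed for the large subunit, had one of 30.92 in its 5′ UTR, 4 bp from the start. Dkc1, the pseudouridine synthase dyskerin, had one of 25.51. For Npm1, Pes1 and Dkc1 the nearest villus site was 333316, 261857 and 569889 bp away.

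The metabolic targets had lower crypt scores. Odc1, which encodes the first enzyme of polyamine synthesis, had a crypt site of score 25.75, 255 bp inside the gene. Shmt1, a serine hydroxymethyltransferase of one-carbon metabolism, had one of 18.69, and Srm, spermidine synthase, one of 16.33. These 3 sites held the E-box, and Shmt1 and Srm also had a site of Rb-deficient crypt E2f3. Eif4a1, an RNA helicase of translation initiation, had a crypt site of 17.40 without an E-box within 50 bp.

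Lists of translation genes also lay above the 8.28% of all genes in crypt. Of 20 aminoacyl-tRNA synthetase genes 6 had a crypt site and 0 a villus site, led by Vars at 45.49 and Tars at 38.02, of which Tars had the E-box. Of 83 ribosomal protein genes 25 had a crypt site and 0 a villus site. An E-box was found at 5 of the 25, beside 31.4% of all genes with a crypt site, counted at the best site. Rpl32 had a score of 113.84, Rpl10a 98.90 and Rpl12 62.04, and the site of Rpl12 also lies in the promoter of Lrsam1. The shares in crypt were 30% and 30.1%. Of 20 housekeeping genes 5 had a crypt site, or 25%, led by Ppia at 49.29, so a share above 8.28% was not limited to genes of translation.

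Of 14 genes of the Myc network, 3 (21.4%) had a crypt site, against 8.28% of all genes, and 0 a villus site, against 0.423%. These were Mnt, a Max partner that opposes Myc, at 26.18, Mlxip at 22.38 and Mga at 13.56. The E-box was within 50 bp at Mlxip.

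Genes of the cell cycle had smaller crypt shares than ribosome biogenesis and than the 25% of housekeeping genes. For G2/M and G1/S the counts below are few and near the 8.28% of all genes in crypt, so they are not read as an excess. Of 37 DNA replication genes 6 had a crypt site (16.2%), of 29 genes of G2/M and mitosis 4 (13.8%) and of 26 regulators of G1/S in the Rb-E2F pathway 3 (11.5%), and 0 had a villus site within 1 kb, where 0.423% of all genes had one. Mcm7, a subunit of the replicative helicase, had a score of 16.08. Aurka, a mitotic kinase, had 56.71 with an E-box. E2f3 had 33.32, its dimer partner Tfdp1 26.20 and the cyclin gene Ccne2 12.63. Of the replication genes with a crypt site 5 of 6 also had an E2f3 site of Rb-deficient crypt at the best site, and 2 of 15 for ribosome biogenesis did. An E2f3 site of Rb-deficient crypt lay at 40.1% of all crypt promoter sites. Counting either Rb-deficient library, a wider measure, an E2f3 site lay at the best crypt site of 42.3% of all genes with one. The difference between the lists was not tested.

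Lists of intestinal and other cell types had between 0 and 4 members with a crypt site and 0 with a villus site, where 0.423% of all genes had a villus site. Of 20 stem cell and crypt genes 4 had a crypt site, namely Cdca7 at 9.5, Rnf43 at 8.52, Lrig1 at 7.14 and Znrf3 at 6.42. Rnf43 and Znrf3 encode ubiquitin ligases that remove Wnt receptors. Of 20 villus enterocyte genes 2 had a crypt site, Mttp, which loads lipid onto lipoproteins, at 70.32, and Fabp2, a fatty acid binding protein, at 8.67. One gene each had a crypt site in the lists of secretory lineages (Muc2), intestinal transcription factors (Klf4), immune cells (Itgax) and other tissues (Nphs1), and 0 of 14 stromal and endothelial genes had one. The shares of these lists were 20%, 10%, 5.88%, 5%, 5.88%, 4.76% and 0%, beside 8.28% over all genes. Of 1087 olfactory receptor genes 13 (1.2%) had a crypt site and 2 (0.18%) a villus site.

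**Figure D5:**
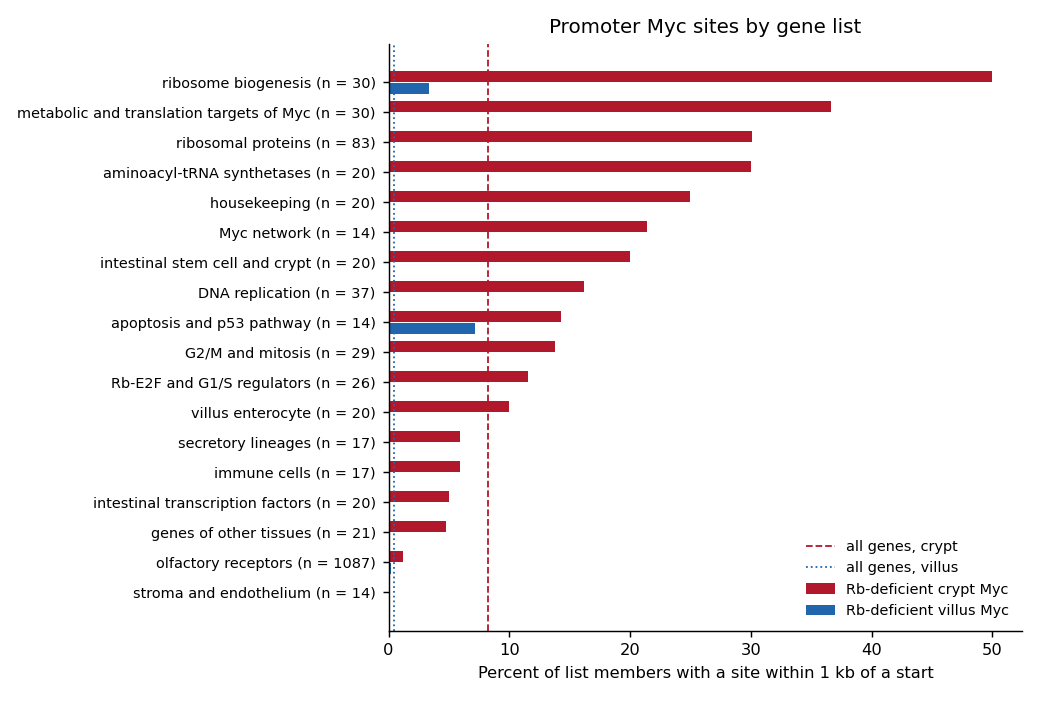
Percent of the members of each gene list with a Myc site within 1 kb of a start, in Rb-deficient crypt (red) and Rb-deficient villus (blue). Dashed and dotted lines give all protein-coding genes, at 8.28% in crypt and 0.423% in villus. The ribosome biogenesis list reaches 50% in crypt, and 3 lists have a villus site.

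The genes with the highest-scored crypt site and no villus site were led by mt-Nd5, at the cap of 999 on the mitochondrial genome, where 8 crypt and 2 villus sites lay. The others by the same rule were Ccdc9 at 125.43, Tle3 and Gm10655 at 121.52 from 1 site, Rpl32, Pemt at 111.11, Rpl10a, Tbrg4 at 85.49, Rnf212 at 84.43, Wipf2 at 80.72 and Il17d at 78.39. Tle3 encodes a corepressor of Wnt-responsive transcription. Pemt, which methylates phosphatidylethanolamine, and Wipf2, a regulator of actin, had the E-box. After Pemt and Wipf2, the highest-scored promoter sites with an E-box at genes without a villus site were those of Slc19a1 at 78.35, which encodes a folate carrier, and Supv3l1 at 73.01, a mitochondrial RNA helicase. Next came Arsg and Slc16a6 at 68.84 from 1 site, Fam108c at 63.04, Lrsam1 and Rpl12 at 62.04 from 1 site, and Esrra at 61.09, a nuclear receptor of mitochondrial genes. These were chosen after their values were seen.

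The 8 genes with a villus site and no crypt site came from 6 sites. They were Gm10801 at the cap of 999, Ank1 at 35.81, then Atf5, Nup62 and Il4i1 at 7.80 from 1 site, Hist1h2an at 3.83, Heatr7a at 3.77 and Clvs1 at 2.81. Read on the minus strand, the bases at Gm10801 and Ank1 resemble those at predicted genes near the start of chromosome 9. An exact count of 31 bp misses such inexact copies, so these sites may not belong to the named genes, which was not tested. The villus sites without a crypt partner, 293 in all, had a median score of 4.29, and 27.0% lay on contigs outside the reference. Of those on the reference, 9.35% had a sequence of 31 bp that recurs elsewhere, against 1.32% of shared villus sites. At positions 2 kb from the villus sites the share was 11.4%, so the low value is that of the shared sites.

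Genes with the best ranks in both lists were mostly predicted genes near the start of chromosome 9. Of the 10 chosen by rank, 8 were Gm genes between chr9:3015724 and chr9:3036366, with scores up to 999 in both lists. Of the 112 villus promoter sites 25.9% lay within the first 3.3 Mb of a chromosome, against 1.35% of 1852 crypt promoter sites. Without the first 3.3 Mb, 84 genes had a villus site and 76 had a site in both lists.

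Outside those ends, the leading genes in both lists had an E2f3 site in both Rb-deficient libraries and no E-box at the site. This was not particular to them. Over all 86 genes with both sites, the best crypt site had E2f3 of either library in 95.3% and an E-box in 2.33%. Bbc3, which encodes the p53-induced death protein Puma, had 148.80 in crypt and 22.42 in villus, 38 bp apart. Taco1, a translation activator of mitochondrial cytochrome oxidase, had 130.05 in crypt and 30.90 in villus, 11 bp apart. Pacsin2, a membrane-bending protein, had 175.50 in crypt and 17.06 in villus, 1 bp apart. Idi1, an enzyme of isoprenoid synthesis, had 115.42 in crypt and 14.35 in villus, 15 bp apart. Scores of different lists are not on a known common scale, so each is read within its own list.

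Bbc3 was also the only member of the apoptosis and p53 list with a villus site, while Trp53 had a crypt site alone, of 9.67 with an E-box. Of the 86 genes with both sites, 81 (94.2%) had an E2f3 site of either Rb-deficient library at their best villus site. This is near the 90.2% of all villus promoter sites and the 92.1% of all villus sites, so it is not read as a trait of these genes. The 2 olfactory receptor genes in villus, Olfr693 and Olfr1444, had crypt scores of 74.07 and 34.75 and villus scores of 8.99 and 4.12, with E2f3 sites in both libraries.

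Most shared sites were far from promoters. The best pair of single-copy sites outside promoters lay at chrX:73844010 in crypt and chrX:73844011 in villus, in an intron of 4930468A15Rik, with scores of 999 in crypt and 312.30 in villus. Of the 6 best such pairs none had an E-box within 50 bp, and 6 of 6 had an E2f3 site of Rb-deficient villus. Over all shared villus sites 1.72% had an E-box and 80.1% such an E2f3 site, so these counts are not read as a trait of the 6 pairs. The pair with its villus site at chr3:8246498 had no E2f3 site of Rb-deficient crypt. Single copy here means an exact 31-bp match. The pair with its villus site at chr12:75905151 shares a long run of bases with the crypt site of Gm10719 on chromosome 9.

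Of 8 villus sites with an E-box but no E2f3 site of the Rb-deficient libraries, 7 had a crypt partner. The nearest start was that of Thra, Ncl, Defb3, Grm4, Zfp648, Mgat5 and Ankrd7 for these, and of Nhs for the site without a partner. The villus scores were 2.48 to 5.02. The villus site nearest Thra, a thyroid hormone receptor gene, at chr11:98611911 had its E-box 4.50 bp from the site and a crypt site 4 bp away.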

How the data were processed

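Binding sites of Myc were compared between 1 Rb-deficient crypt library and 1 Rb-deficient villus library. Bowtie2 2.2.1, MACS2 2.0.10 and mm9 are named in the submitters' processing notes, and the deposited file names give GEM events overlapping MACS2 peaks, called on merged data that kept duplicates. GEM's settings and what was merged: not given in the sources used here. The authors' deposited lists hold 1-bp positions and a score, whose scale is not stated. Positions count from 0, as motif centres showed, and 1 was added to each. Sites within 250 bp of each other were called shared. The E-box was searched within 50 bp of a site and in windows 2 kb to each side, and genes and sequence came from NCBIM37 with GENCODE M1. Sites outside that reference numbered 145 in crypt and 188 in villus. A promoter reached 1 kb to each side of a start, over 45974 start positions. Intervals are exact 95% binomial intervals, computed with SciPy 1.17.1 in Python 3.11.15. No p-value was computed, with 1 library per group. Named genes were those of the 10 highest-scored promoter sites in crypt alone, those in villus alone, those with the 10 best worse-of-2 ranks in both (a site in the promoters of several genes names each and takes 1 place), each list member with a villus site and up to 4 members per list by crypt score. Further genes are said to have been added after their values were seen. The members and the 18 gene lists were chosen with earlier results of these data known. Matching and motif search were tested on simulated data. Alternatives were the shared distance, list length, promoter distance, motif window, repeated sequence, E2f3 sites and the score cap.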

Additional observations from a re-analysis of the deposited data

How the results depend on the processing

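The shares with a partner kept within their intervals when the shared distance was 100 or 500 bp, when neighbouring sites of a list were joined and when sites at the score cap were left out. Of villus sites, 94.4% had a crypt partner at 1000 bp, 93.8% in the higher-scored 50% of each list, 94.6% on placed chromosomes and 94.3% among sites whose sequence occurs once, where the crypt share was 11.8%. Without sites near E2f3 the shares with a partner were 1.26% in crypt and 55.1% in villus. At 500 bp and 5 kb around a start, promoter sites made up 4.03% and 15.5% of crypt sites, and 1.37% and 12.4% of villus sites. The crypt promoter share was 5.29% at equal length. The E-box share within 250 bp was 12.5% in crypt and 8.19% in villus, with 3 motifs 16.7% in crypt and 9.82% in villus, and 3.37% in crypt at equal length. Genes with a promoter site numbered 4484 in crypt at 5 kb and 224 at equal length. They numbered 49 at 500 bp and 499 at 5 kb in villus, and 42 and 469 in both. The last 3 alternatives on sites (single copies, E2f3, score cap) were chosen after seeing the data. Over all alternatives 25 values stayed within the limits set and 23 moved, and the cause was not tested beyond the smaller or wider windows themselves. The 25 include gene counts that fell, 1841 to 1266 in crypt at 500 bp and 86 to 62 in both at equal length. For gene counts, staying within the limits is therefore not an absence of change. Depth is unknown, so a site missing from the shorter villus list was not detected there, which does not show that Myc was absent. No paired analysis was possible because each group had 1 library and no result comes from a test.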
